A study of Saccharomyces cerevisiae with 10 samples.

Results

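The ARO genes of Saccharomyces cerevisiae encode the shared trunk of aromatic amino acid synthesis, the enzymes that begin aromatic amino acid breakdown, and the transcriptional activator of that breakdown. The 9 genes ARO1 (YDR127W), ARO2 (YGL148W), ARO3 (YDR035W), ARO4 (YBR249C), ARO7 (YPR060C), ARO8 (YGL202W), ARO9 (YHR137W), ARO10 (YDR380W) and ARO80 (YDR421W) were taken by symbol from the annotation of the array's probe sets. Each was read by 1 probe set, and they are 9 of the 5449 S. cerevisiae genes tested.

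The trunk runs from phosphoenolpyruvate and erythrose 4-phosphate to chorismate, from which tryptophan, tyrosine and phenylalanine are made. ARO3 and ARO4 encode the DAHP synthases of the entry step, ARO1 a protein with several activities that carries the middle steps, ARO2 chorismate synthase and ARO7 chorismate mutase, which commits chorismate to tyrosine and phenylalanine. Breakdown follows the Ehrlich pathway: an aminotransferase makes the keto acid, a decarboxylase makes an aldehyde, and reduction or oxidation gives a fusel alcohol or acid. ARO8 and ARO9 encode the aromatic aminotransferases I and II, and ARO10 encodes the decarboxylase. ARO80 encodes a zinc cluster activator known to induce ARO9 and ARO10 when aromatic amino acids are present, while many synthesis genes, ARO8 among them in yeast, are under the general amino acid control of GCN4.

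Messenger RNA of 5 haploid genotypes in the Sce3044 background was measured on 10 Affymetrix arrays, 1 per culture, with n = 2 biological replicates each. The strains were MKT1e (evolved allele of MKT1, a gene of post-transcriptional mRNA control), MDS3e (evolved allele of MDS3, a gene of nutrient signalling), MDS3e MKT1e with both, PMA1e MKT1e with evolved alleles of PMA1, the plasma membrane proton pump gene, and of MKT1, and Ancestral with no evolved allele. All other evolved alleles were absent from each strain, and a strain with PMA1e alone was not analysed here. After a night in rich YPD medium, all cultures grew in a minimal medium with 0.25% dextrose, uracil and no amino acids to an optical density of about 0.2, which took about 17 h, and that medium supplied no aromatic amino acids.

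Levels are log2 of the authors' normalized intensity plus 16, an offset that shrinks differences of dim genes. Values of different genes were read by different probe sets and are not set against each other. The 2 arrays of each genotype correlated across genes with Pearson's r of at least 0.996, and their SD, taken as the median over genes, was at most 0.06. All 9 ARO genes lay above the background limit of 4.15 on every array. Differences are given ± SE from limma, with Benjamini-Hochberg adjustment over all 5449 genes and a call at an adjusted p under 0.05. The genotype means of the evolved genes themselves ran from 8.58 to 9.03 for MKT1, from 7.83 to 7.99 for MDS3 and from 10.76 to 11.19 for PMA1, and genotypes were taken from the labels.

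ARO9 had the widest span of genotype means among the 9 genes, and ARO7 the next widest. The genotype means of ARO9 spanned 1.29 on the log2 scale, the 63rd largest span of the 5449 genes, against a median span of 0.27 over all genes. ARO7 spanned 0.59, at the 89.4th percentile of all genes, and ARO3, ARO2 and ARO1 spanned 0.27, 0.25 and 0.25. ARO8 and ARO4 spanned 0.20 each and ARO10 and ARO80 0.09 each, which put both near the 6th percentile of all genes. By limma's F-test, 6 of the 9 genes differed among the genotypes, beside 55% of all genes tested. These were ARO9 (adjusted p = 7.6e-06), ARO7 (0.0018), ARO3 (0.0063), ARO2 (0.0067), ARO1 (0.039) and ARO4 (0.048). The call of ARO4 was lost whichever array was left out, that of ARO1 in 7 of 10 such runs, and that of ARO3 after median centring of the arrays (adjusted p = 0.056). The ARO4 call was also lost with an offset of 1, median centring, array weights and the replicate block. The ARO1 call was also lost with an offset of 1 and after quantile normalization.

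**Figure D1:**
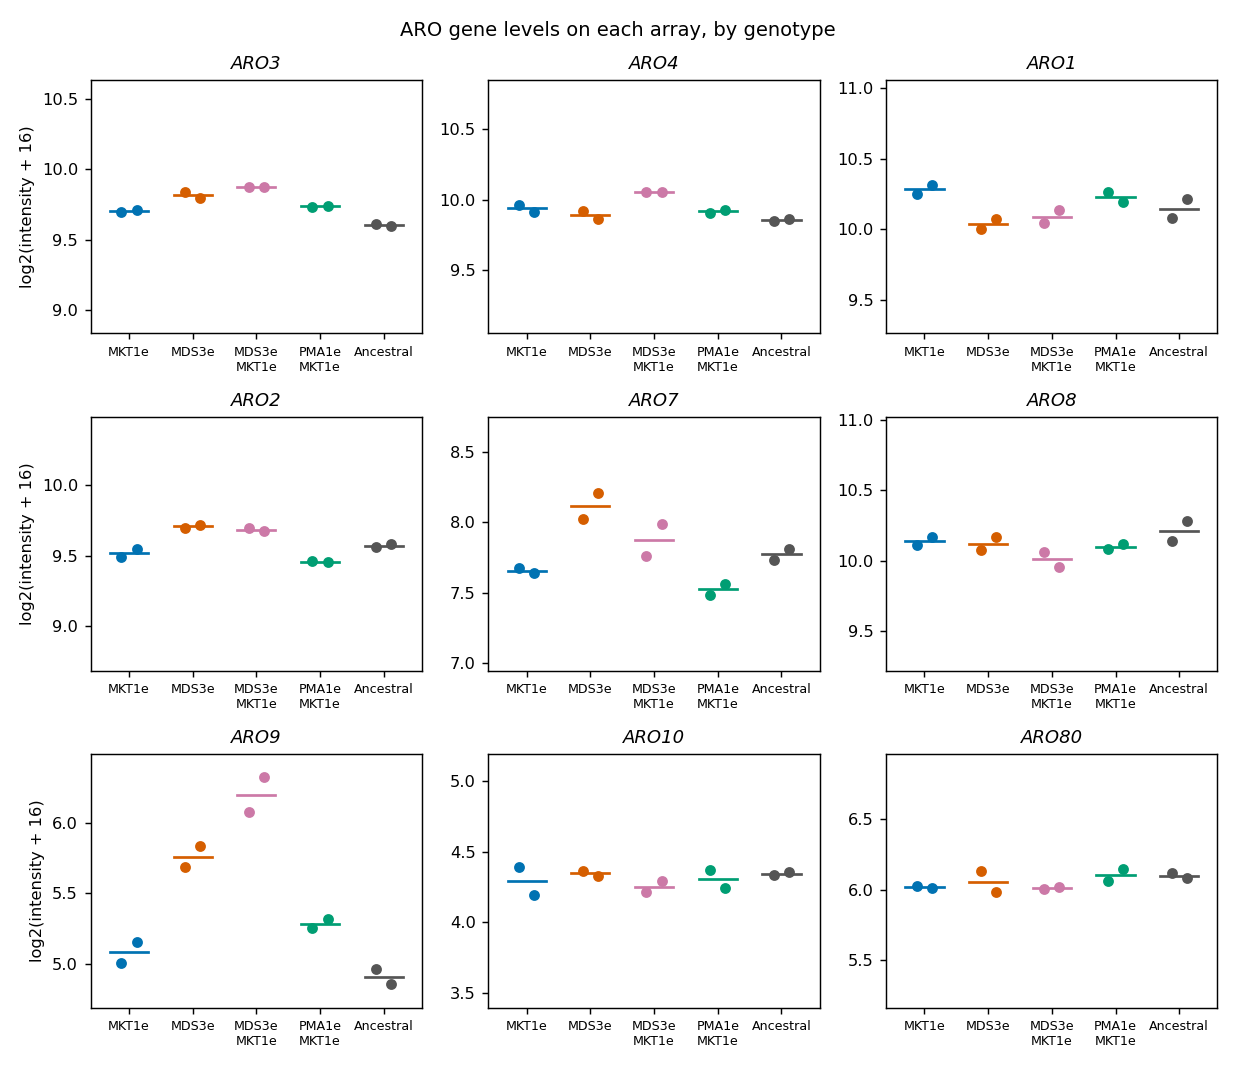
Level of each ARO gene, as log2(intensity + 16), on the 10 arrays, with 2 points per genotype and a bar at their mean. Every panel covers the same height on the log2 scale, so that ARO9, with arrays from 4.85 to 6.32, can be seen against ARO10 and ARO80. ARO10 lies close to background, where the offset compresses differences.

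The DAHP synthase gene ARO3 was highest in both strains with MDS3e and lowest in Ancestral. Its level was 9.70 and 9.71 in MKT1e, 9.84 and 9.80 in MDS3e, 9.87 and 9.88 in MDS3e MKT1e, 9.73 and 9.74 in PMA1e MKT1e, and 9.61 and 9.59 in Ancestral. No pair of genotypes overlapped, and the order was MDS3e MKT1e, MDS3e, PMA1e MKT1e, MKT1e, Ancestral. PMA1e MKT1e gave 0.14 ± 0.05 against Ancestral (adjusted p = 0.073). That difference passed with an offset of 64, after quantile normalization and with trended variance. PMA1e MKT1e against MDS3e MKT1e gave -0.14 ± 0.05 (adjusted p = 0.057), which passed with an offset of 64, trended variance and array weights. MKT1e against Ancestral gave 0.10 ± 0.05 (adjusted p = 0.17). ARO3 rose by 0.27 ± 0.05 in MDS3e MKT1e against Ancestral (adjusted p = 0.0017) and by 0.21 ± 0.05 in MDS3e against Ancestral (adjusted p = 0.011). It was also 0.17 ± 0.05 higher in MDS3e MKT1e than in MKT1e (adjusted p = 0.028). The call in MDS3e was lost without MDS3e replicate 1 (0.20), after median centring (0.16, adjusted p = 0.051) and with only the compared genotypes (adjusted p = 0.060). The call against MKT1e was lost after median centring (0.11, adjusted p = 0.16) and with only the compared genotypes (adjusted p = 0.069). It was also lost in all 4 runs that left out an array of either genotype (0.16 without MKT1e replicate 1, 0.18 without MKT1e replicate 2, 0.17 without either MDS3e MKT1e array).

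The second DAHP synthase gene, ARO4, was highest in MDS3e MKT1e, where it was called against Ancestral only. It measured 9.96 and 9.91 in MKT1e, 9.92 and 9.86 in MDS3e, 10.05 and 10.05 in MDS3e MKT1e, 9.91 and 9.93 in PMA1e MKT1e, and 9.85 and 9.86 in Ancestral. The MDS3e MKT1e arrays lay above all other arrays, while the other genotypes followed each other in level with overlapping arrays between neighbours. ARO4 rose by 0.20 ± 0.05 in MDS3e MKT1e against Ancestral (adjusted p = 0.012). That call was lost after median centring (0.11, adjusted p = 0.12), with only the compared genotypes (adjusted p = 0.061) and without MDS3e MKT1e replicate 1 (0.20). MDS3e alone differed from Ancestral by 0.04 ± 0.05 in ARO4 (adjusted p = 0.65), but the factorial interaction of MDS3e and MKT1e was 0.08 ± 0.07 (adjusted p = 0.91). MDS3e MKT1e gave 0.16 ± 0.05 against MDS3e (adjusted p = 0.053) and 0.11 ± 0.05 against MKT1e (adjusted p = 0.12). PMA1e MKT1e against MDS3e MKT1e gave -0.14 ± 0.05 (adjusted p = 0.067). With all arrays kept, each of these passed after quantile normalization. Those against MDS3e and of PMA1e MKT1e also passed with an offset of 64, trended variance and array weights.

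ARO1, the gene of the multifunctional trunk enzyme, and ARO2, chorismate synthase, ran in different orders. ARO1 measured 10.25 and 10.32 in MKT1e, 10.01 and 10.07 in MDS3e, 10.05 and 10.14 in MDS3e MKT1e, 10.26 and 10.19 in PMA1e MKT1e, and 10.08 and 10.21 in Ancestral. Neighbours in the order of ARO1 overlapped throughout, with MKT1e at the top and MDS3e at the bottom. Its 1 call, a fall by 0.19 ± 0.07 in MDS3e MKT1e against MKT1e (adjusted p = 0.0497), lay at the threshold and was lost for 8 of the 10 arrays when each was dropped in turn, with values from -0.24 without MDS3e MKT1e replicate 2 to -0.15 without MDS3e MKT1e replicate 1. After quantile normalization the ARO1 value was -0.10 (adjusted p = 0.26). The call was also lost with an offset of 1 (adjusted p = 0.073) and with only the compared genotypes (adjusted p = 0.063).

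ARO2 measured 9.49 and 9.55 in MKT1e, 9.70 and 9.72 in MDS3e, 9.69 and 9.67 in MDS3e MKT1e, 9.46 and 9.45 in PMA1e MKT1e, and 9.56 and 9.58 in Ancestral. The strains with MDS3e were highest and PMA1e MKT1e lowest, and no neighbouring genotypes in that order overlapped. ARO2 was 0.23 ± 0.05 lower in PMA1e MKT1e than in MDS3e MKT1e (adjusted p = 0.0075), a call lost without PMA1e MKT1e replicate 2 (-0.22, adjusted p = 0.052). It was 0.16 ± 0.05 higher in MDS3e MKT1e than in MKT1e (adjusted p = 0.035). This second call was lost after median centring (0.10, adjusted p = 0.22) and with only the compared genotypes (adjusted p = 0.085). It was also lost for 8 of the 10 arrays when each was dropped in turn, with values from 0.13 without MKT1e replicate 1 to 0.19 without MKT1e replicate 2. The differences from Ancestral, 0.14 ± 0.05 in MDS3e and -0.12 ± 0.05 in PMA1e MKT1e, did not pass (adjusted p = 0.073 and 0.13).

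Chorismate mutase, ARO7, had the widest spread of the synthesis genes, both among genotypes and between replicates. Its level was 7.67 and 7.64 in MKT1e, 8.02 and 8.21 in MDS3e, 7.76 and 7.99 in MDS3e MKT1e, 7.49 and 7.56 in PMA1e MKT1e, and 7.73 and 7.81 in Ancestral. Both MDS3e arrays lay above all others and both PMA1e MKT1e arrays below all others, while MDS3e MKT1e overlapped Ancestral. ARO7 rose by 0.34 ± 0.08 in MDS3e against Ancestral (adjusted p = 0.016). In PMA1e MKT1e it fell by 0.35 ± 0.08 against MDS3e MKT1e (adjusted p = 0.011). The rise did not pass without MDS3e replicate 2 (0.25, adjusted p = 0.12) or Ancestral replicate 1 (0.31, adjusted p = 0.053), and the fall did not pass without MDS3e MKT1e replicate 2 (-0.24, adjusted p = 0.093) or PMA1e MKT1e replicate 1 (-0.31, adjusted p = 0.075). PMA1e MKT1e against Ancestral gave -0.25 ± 0.08 for ARO7 (adjusted p = 0.062), which passed after median centring, after quantile normalization, with the replicate block, with only the compared genotypes and without either MDS3e MKT1e array. MDS3e MKT1e against MDS3e gave -0.24 ± 0.08 (adjusted p = 0.077). That difference passed after quantile normalization (-0.28, adjusted p = 0.0499) and with the replicate block (adjusted p = 0.040). It was -0.35 without MDS3e MKT1e replicate 2.

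ARO8, the aminotransferase I gene that serves both synthesis and breakdown, was nearly level. It measured 10.11 and 10.17 in MKT1e, 10.07 and 10.17 in MDS3e, 10.06 and 9.96 in MDS3e MKT1e, 10.08 and 10.12 in PMA1e MKT1e, and 10.14 and 10.28 in Ancestral. The MDS3e MKT1e arrays lay below all others and the other 4 genotypes overlapped with their neighbours. ARO8 fell by 0.20 ± 0.07 in MDS3e MKT1e against Ancestral (adjusted p = 0.035). That call was lost without Ancestral replicate 2 (-0.13), without MDS3e MKT1e replicate 2 (-0.15) and without either PMA1e MKT1e array (-0.20). It was also lost after quantile normalization (-0.12, adjusted p = 0.14) and with an offset of 1 (adjusted p = 0.053). Array weights (adjusted p = 0.063) and a fit of only the compared genotypes (adjusted p = 0.10) removed it too.

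ARO9, aminotransferase II of the breakdown route, was high in the strains that carried MDS3e. Its level was 5.01 and 5.16 in MKT1e, 5.69 and 5.83 in MDS3e, 6.08 and 6.32 in MDS3e MKT1e, 5.25 and 5.32 in PMA1e MKT1e, and 4.96 and 4.85 in Ancestral. The genotypes did not overlap, in the order MDS3e MKT1e, MDS3e, PMA1e MKT1e, MKT1e, Ancestral. As intensities before the offset, the means were 17.9 ± 2.5 in MKT1e, 38.2 ± 3.9 in MDS3e, 57.8 ± 8.7 in MDS3e MKT1e, 23.0 ± 1.3 in PMA1e MKT1e and 14.0 ± 1.6 in Ancestral (SD, n = 2 each). The ratio of mean intensities to Ancestral was therefore 4.12 in MDS3e MKT1e and 2.72 in MDS3e, larger than the folds on the offset scale.

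Against Ancestral, ARO9 rose by 1.29 ± 0.09 in MDS3e MKT1e (adjusted p = 3.7e-06) and by 0.85 ± 0.09 in MDS3e (adjusted p = 0.00018). In PMA1e MKT1e the rise was 0.38 ± 0.09 (adjusted p = 0.013). In MKT1e alone its difference was 0.17 ± 0.09, with a 95% interval from -0.03 to 0.37 (adjusted p = 0.20). These comparisons share the 2 Ancestral arrays. The PMA1e MKT1e call was lost without PMA1e MKT1e replicate 2 (0.34, adjusted p = 0.096) and without Ancestral replicate 2 (0.33, adjusted p = 0.059), and with an offset of 64 (0.16, adjusted p = 0.068). With an offset of 1 the ARO9 differences were 1.96 in MDS3e MKT1e, 1.38 in MDS3e and 0.68 in PMA1e MKT1e, and with 64 they were 0.64 and 0.39 in the strains with MDS3e, so its size depends on the offset while the calls of both strains with MDS3e did not.

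The allele effects on ARO9 were also read with the other allele present. Adding MDS3e to MKT1e raised ARO9 by 1.12 ± 0.09 (MDS3e MKT1e against MKT1e, adjusted p = 2.0e-05), beside 0.85 ± 0.09 for MDS3e against Ancestral, comparisons that share no arrays. Adding MKT1e to MDS3e raised ARO9 by 0.44 ± 0.09 (MDS3e MKT1e against MDS3e, adjusted p = 0.0072), beside the 0.17 that did not pass for MKT1e alone. The call of MDS3e MKT1e against MDS3e was lost without MDS3e replicate 1 (0.37, adjusted p = 0.069) and without MDS3e MKT1e replicate 2 (0.32, adjusted p = 0.057). The interaction, which tests whether the effects of either allele differ with the other, was 0.27 ± 0.13 with a 95% interval from -0.01 to 0.55 (adjusted p = 0.76). In PMA1e MKT1e, ARO9 was 0.92 ± 0.09 lower than in MDS3e MKT1e (adjusted p = 5.6e-05). Against MKT1e the difference of PMA1e MKT1e was 0.20 ± 0.09 (adjusted p = 0.50).

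ARO10, the decarboxylase gene that ARO80 is known to activate together with ARO9, passed no test. It measured 4.39 and 4.20 in MKT1e, 4.36 and 4.33 in MDS3e, 4.21 and 4.29 in MDS3e MKT1e, 4.37 and 4.24 in PMA1e MKT1e, and 4.33 and 4.35 in Ancestral. All 10 ARO10 values lay within 0.25 of the background limit, and neighbouring genotypes overlapped throughout. The difference was -0.09 ± 0.07 in MDS3e MKT1e against Ancestral (95% interval from -0.25 to 0.07) and 0.00 ± 0.07 in MDS3e (95% interval from -0.16 to 0.16), neither passing the test (adjusted p = 0.35 and 0.99). So close to background, the offset compresses differences strongly and these intervals hold only on that scale. As mean intensities, ARO10 was 3.05 in MDS3e MKT1e and 4.31 in Ancestral, a ratio of 0.71, so its narrow span does not show a constant level. ARO10 was called in no comparison under any alternative listed in the closing section.

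The activator gene ARO80 lay further above the background limit than ARO10 and also had a narrow span. As intensities, it measured 49.3 and 48.6 in MKT1e, 54.2 and 47.2 in MDS3e, 48.2 and 48.9 in MDS3e MKT1e, 50.8 and 54.8 in PMA1e MKT1e, and 53.4 and 51.7 in Ancestral. Neighbouring genotypes overlapped throughout. On the log2 scale the difference from Ancestral was -0.09 ± 0.06 in MDS3e MKT1e (95% interval from -0.23 to 0.05, adjusted p = 0.29) and -0.04 ± 0.06 in MDS3e (95% interval from -0.18 to 0.10, adjusted p = 0.66). After median centring the first of these, -0.17, passed the test (adjusted p = 0.047).

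**Figure D2:**
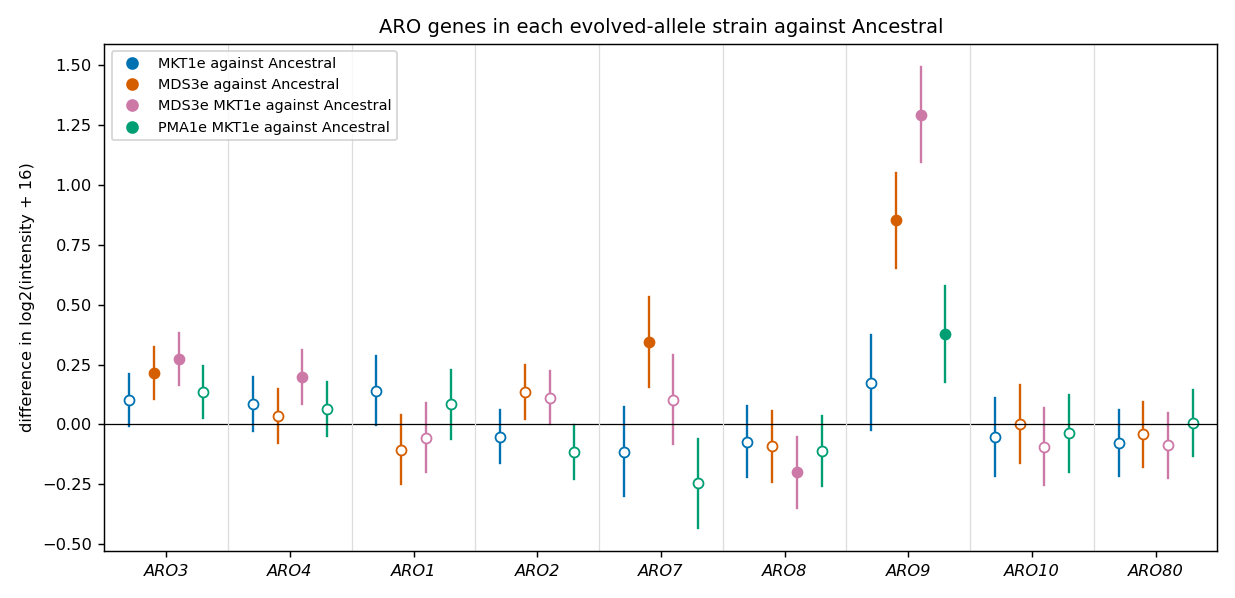
Difference of each of the 4 strains with evolved alleles from Ancestral for the 9 ARO genes, in log2(intensity + 16), with 95% intervals from limma; filled points passed the adjusted p under 0.05 and open points did not. The ARO9 points of MDS3e MKT1e (1.29) and MDS3e (0.85) stand above all other points.

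Counted by comparison, 0 of the 9 ARO genes were called in MKT1e against Ancestral by limma, where 20.3% of all genes were (11.8% higher and 8.48% lower), and 0 had an unadjusted p under 0.05. The ARO differences in MKT1e ran from -0.11 to 0.17, with a median of -0.05 beside -0.01 for all genes. In MDS3e against Ancestral 3 rose and none fell (ARO3, ARO7 and ARO9), where 25.2% of all genes were called (14.5% higher and 10.7% lower), with a median of 0.04 for the ARO genes beside 0.03 for all genes. In MDS3e MKT1e against Ancestral 3 rose (ARO3, ARO4 and ARO9) and ARO8 fell, where 38.7% of all genes were called (21.9% higher and 16.7% lower), with medians of 0.10 and 0.03. In PMA1e MKT1e against Ancestral ARO9 alone was called, where 21.6% of all genes were (14.3% higher and 7.32% lower), with medians of 0.01 and 0.01. The shares of the 9 genes called were 0% in MKT1e and 11.1% in PMA1e MKT1e, below those of all genes. In MDS3e and MDS3e MKT1e they were 33.3% and 44.4%, above those of all genes. In a set of 9, 1 gene makes up 11.1%, so these contrasts rest on few genes and were not tested. The arrays of the 2 genotypes did not overlap for 7 ARO genes in MKT1e against Ancestral, beside 56.9% of all genes, for 5 in MDS3e, beside 61.7%, for 7 in MDS3e MKT1e, beside 65.9%, and for 6 in PMA1e MKT1e, beside 59.1%.

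Among strains with evolved alleles, MDS3e MKT1e against MKT1e gave 3 rises (ARO2, ARO3 and ARO9) and a fall of ARO1, where 26.4% of all genes were called (15% higher and 11.5% lower). MDS3e MKT1e against MDS3e gave 1 rise, ARO9, where 17.2% of all genes were called (11% higher and 6.24% lower). PMA1e MKT1e against MDS3e MKT1e gave 3 falls (ARO2, ARO7 and ARO9), where 31.4% of all genes were called (15.3% higher and 16.1% lower), and the median of the ARO genes was -0.14 beside -0.01 for all genes. In PMA1e MKT1e against MKT1e limma called 0 ARO genes, where 0.0184% of all genes were called, and 1 of 9, ARO9, had an unadjusted p under 0.05. The 95% intervals of the 9 differences in that comparison ran from -0.32 to 0.40. Arrays did not overlap for 7 ARO genes in MDS3e MKT1e against MKT1e, beside 65.8% of all genes, for 7 against MDS3e, beside 61%, for 5 in PMA1e MKT1e against MKT1e, beside 43.6%, and for 8 against MDS3e MKT1e, beside 70.4%. The interaction was called by limma for 0 of the 9, where 0.385% of all genes were called, and 0 had an unadjusted p under 0.05.

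**Figure D3:**
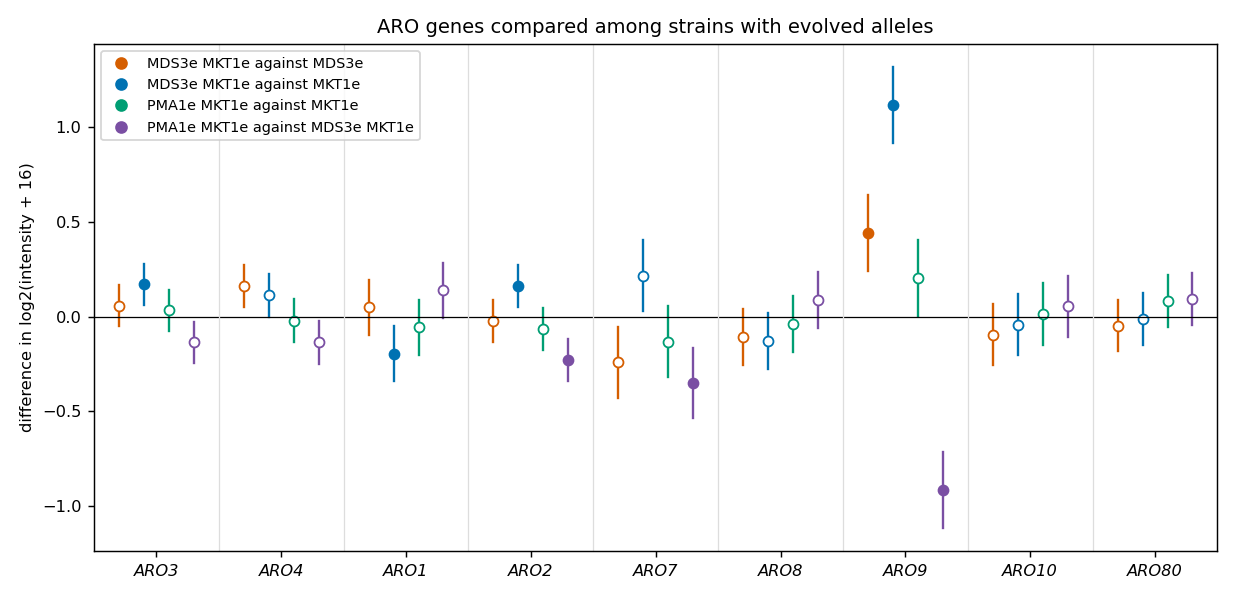
Differences among the strains with evolved alleles for the 9 ARO genes, in log2(intensity + 16), with 95% intervals from limma; filled points passed the adjusted p under 0.05. ARO9 is higher in MDS3e MKT1e than in MKT1e (1.12) and lower in PMA1e MKT1e than in MDS3e MKT1e (-0.92), and all PMA1e MKT1e against MKT1e points are open.

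ARO9 was the 1 member whose genotype means spanned at least 1 on the log2 scale, so genes of like pattern were sought for it alone. The measure was the root mean square difference over the 10 arrays after each gene was centred on its own mean. The nearest were PHO81 (0.12), which encodes the inhibitor of the phosphate-sensing kinase complex, VTC4 (0.16), which encodes the catalytic subunit of polyphosphate synthase, and HMS2 (0.19), a gene related to heat shock transcription factors. PHO81 rose by 1.24 ± 0.05 in MDS3e MKT1e and by 0.81 ± 0.05 in MDS3e, with 0.02 ± 0.05 in MKT1e and 0.12 ± 0.05 in PMA1e MKT1e, neither passing the test. The nearest other ARO gene was ARO3, at 0.39, with the same order of genotypes over a smaller span.

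**Figure D4:**
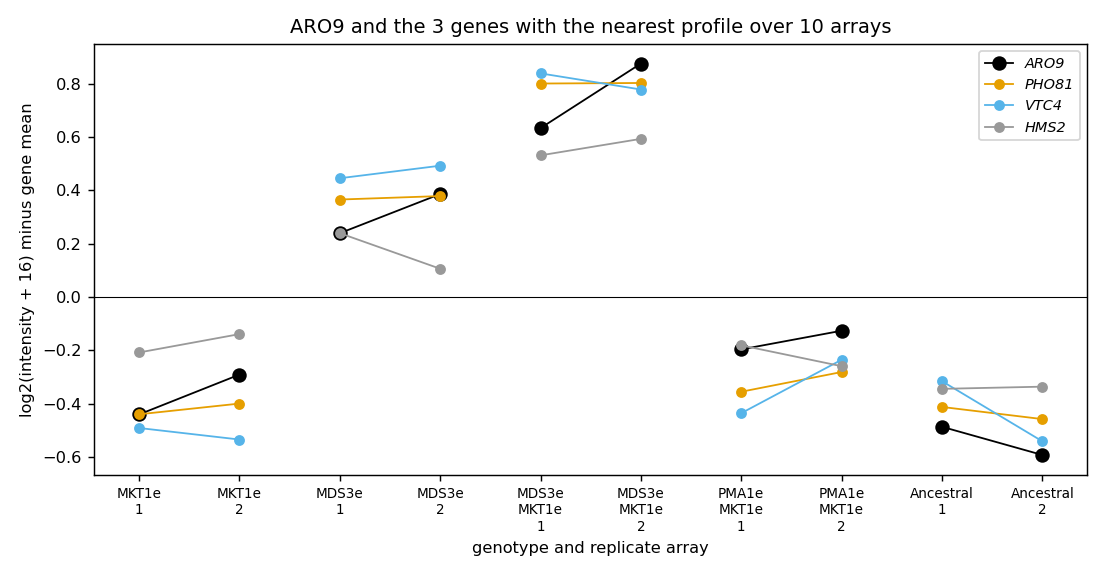
Level of ARO9 and of PHO81, VTC4 and HMS2 on each of the 10 arrays, as log2(intensity + 16) minus the gene's mean; lines join the 2 arrays of a genotype. All 4 genes are above their mean on the 4 arrays of MDS3e and MDS3e MKT1e and below it on the other 6. Likeness was measured at this offset only and over these same arrays, so the shared pattern follows from the choice of genes.

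Branches beyond chorismate were read from a list of 6 measured genes of tryptophan, tyrosine and phenylalanine synthesis. In MDS3e MKT1e against Ancestral 2 of 6 rose, TRP4, anthranilate phosphoribosyltransferase, by 0.34 ± 0.06 (adjusted p = 0.0020) and PHA2, prephenate dehydratase, by 0.28 ± 0.05 (adjusted p = 0.0016), and none fell. Their median was 0.12 beside 0.03 for all genes. In MDS3e 3 rose and none fell, in MKT1e none rose and 1 fell, and in PMA1e MKT1e 1 rose and 2 fell. Their medians were 0.08, 0.00 and -0.02. The shares called were 50%, 16.7% and 50% in that order, and 33.3% in MDS3e MKT1e. Those of all genes were 25.2%, 20.3%, 21.6% and 38.7%. In MDS3e the calls held under 15 of 20 alternatives for TRP4, 10 for PHA2 and 5 for TRP3. The TRP2 falls held under 6 in MKT1e and 8 in PMA1e MKT1e. Also in PMA1e MKT1e, the PHA2 rise held under 13 and the TRP5 fall under 16. TRP4 was 0.32 ± 0.06 lower in PMA1e MKT1e than in MDS3e MKT1e (adjusted p = 0.0042), in the same direction as ARO2 and ARO7. Of the 2 genes that lead from chorismate to p-aminobenzoate, ABZ1 and ABZ2, none was called in MKT1e, MDS3e or MDS3e MKT1e and 1 rose in PMA1e MKT1e.

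Precursor supply was read from 4 genes of the pentose phosphate pathway that handle erythrose 4-phosphate, the transketolase genes TKL1 and TKL2 and the transaldolase genes TAL1 and NQM1. In MDS3e MKT1e and in MDS3e all 4 fell against Ancestral, with medians of -0.49 and -0.54. Of all genes, 38.7% and 25.2% were called there. The TAL1 falls were lost after quantile normalization in both strains, and in MDS3e also without MDS3e replicate 1. The products of ARO3 and ARO4 use erythrose 4-phosphate. ARO3 rose in both strains, while ARO4 rose in MDS3e MKT1e and gave 0.04 in MDS3e (adjusted p = 0.65). Median centring removed the ARO3 call in MDS3e and the ARO4 call. TKL2 fell by 0.68 ± 0.09 in MDS3e MKT1e and by 0.84 ± 0.09 in MDS3e, and rose by 1.29 ± 0.09 in MKT1e and by 1.66 ± 0.09 in PMA1e MKT1e. NQM1 fell by 0.97 ± 0.14 in MDS3e MKT1e and by 0.75 ± 0.14 in MDS3e, and rose by 0.98 ± 0.14 in PMA1e MKT1e. In MKT1e and in PMA1e MKT1e 2 of the 4 rose and none fell, where 20.3% and 21.6% of all genes were called.

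Later steps of the Ehrlich pathway were read from 12 genes of decarboxylases, alcohol dehydrogenases and exporters, most of which also serve ethanol formation. Of them 1 rose and 3 fell in MKT1e, 1 rose and 4 fell in MDS3e, 1 rose and 4 fell in MDS3e MKT1e, and 2 rose and 1 fell in PMA1e MKT1e. The shares called were 33.3%, 41.7%, 41.7% and 25% in that order, beside 20.3%, 25.2%, 38.7% and 21.6% of all genes. ADH2, the glucose-repressed alcohol dehydrogenase gene, fell by 1.14 ± 0.07 in MKT1e, by 1.17 ± 0.07 in MDS3e MKT1e and by 0.91 ± 0.07 in PMA1e MKT1e. ADH5, another alcohol dehydrogenase gene, rose by 0.53 ± 0.07 in MDS3e MKT1e. ESBP6 is a transporter gene with similarity to monocarboxylate permeases that has been described as a target of ARO80. It fell by 0.34 ± 0.06 in MDS3e (adjusted p = 0.0039) and rose by 0.26 ± 0.06 in PMA1e MKT1e (adjusted p = 0.012). The ESBP6 call in PMA1e MKT1e was lost without PMA1e MKT1e replicate 2 (0.19, adjusted p = 0.12). In MDS3e MKT1e the ESBP6 difference was -0.12 ± 0.06 (adjusted p = 0.13). The activity of the ARO80 protein was not measured, and its part in any of these differences was not tested.

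Of 6 permease genes that take up aromatic amino acids, GAP1, the general amino acid permease, fell by 0.40 ± 0.05 in MKT1e, by 0.61 ± 0.05 in MDS3e MKT1e and by 0.38 ± 0.05 in PMA1e MKT1e against Ancestral. GAP1 also fell by 0.24 in MDS3e (limma adjusted p = 0.010), a call that held under 15 of 20 alternatives. TAT2, the high-affinity tryptophan and tyrosine permease gene, rose by 0.34 ± 0.06 in MDS3e MKT1e (adjusted p = 0.0019). In all, 1 rose and 1 fell in each of MKT1e, MDS3e MKT1e and PMA1e MKT1e, and 1 fell in MDS3e. Of 7 genes that convert tryptophan to NAD, BNA2, tryptophan 2,3-dioxygenase, rose by 0.54 ± 0.08 in MDS3e MKT1e and by 0.44 ± 0.08 in PMA1e MKT1e. That list had 1 rise and 1 fall in each of these strains (28.6% called), 1 fall in MKT1e (14.3%) and no call in MDS3e. The shares of all genes are those given beside the permeases. In MDS3e 0 of 7 passed limma's test, 1 had an unadjusted p under 0.05 and the median was -0.01.

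**Figure D5:**
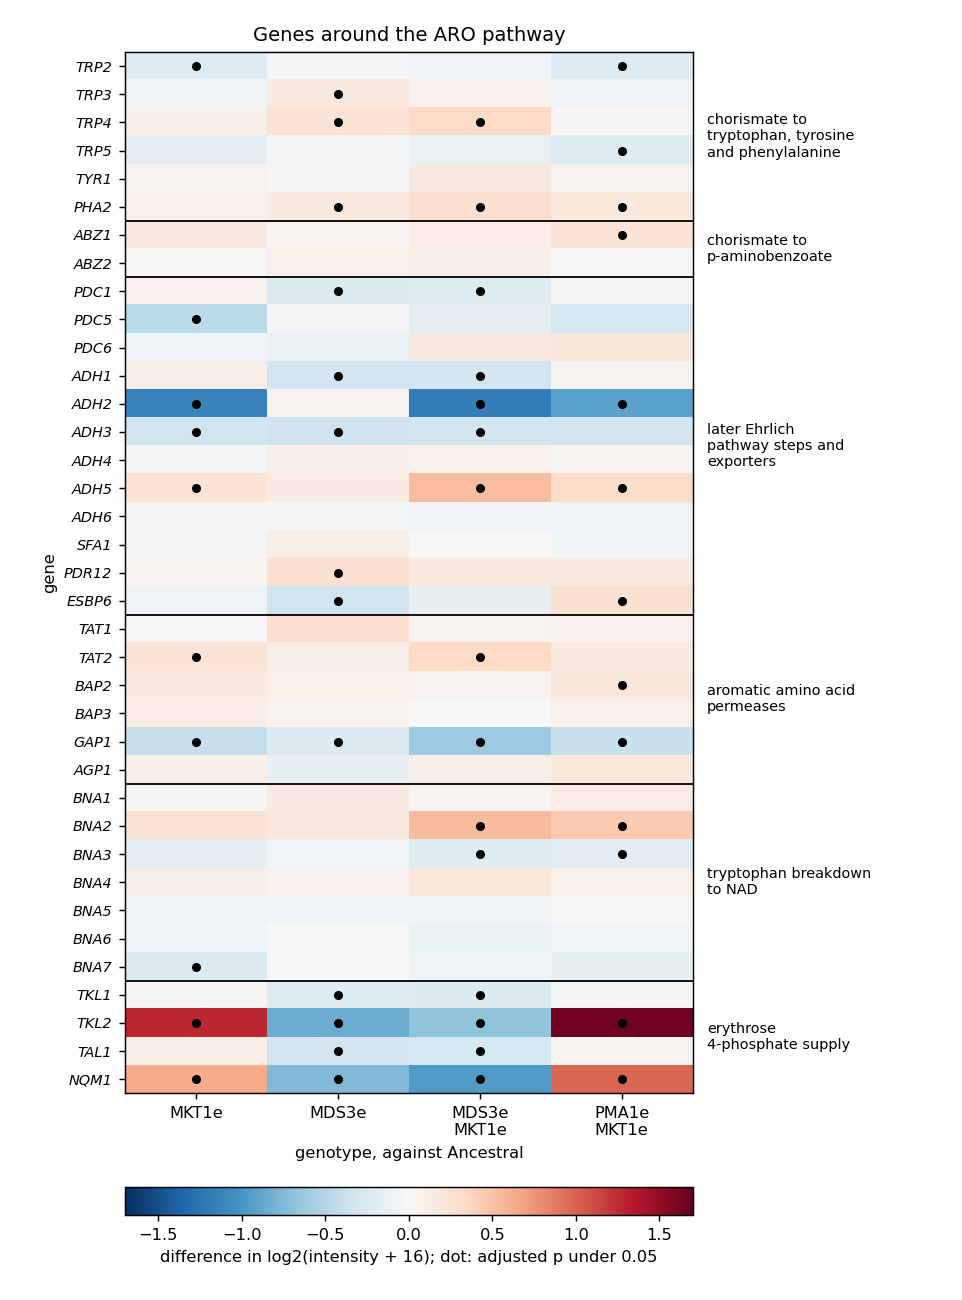
Difference from Ancestral of 37 genes that feed, branch from or follow the ARO steps, in log2(intensity + 16), with the strains across and the genes down; a dot marks an adjusted p under 0.05. TKL2 and NQM1 have opposite signs in the strains with and without MDS3e, and ADH2 is lower in the 3 strains with MKT1e.

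Genes of regulation were counted last. Of 20 measured genes of the general amino acid control (GCN4, GCN2 and genes of other amino acids that GCN4 is known to activate), 1 fell in MKT1e, 2 rose and 2 fell in MDS3e, 2 rose and 3 fell in MDS3e MKT1e, and 4 fell in PMA1e MKT1e. The shares called were 5%, 20%, 25% and 20% in that order, beside 20.3%, 25.2%, 38.7% and 21.6% of all genes. The medians of that list, -0.01, 0.04, 0.02 and -0.08 in the same order, lay within 0.1 of those of all genes. GCN4 itself gave -0.29 in MDS3e against Ancestral (limma adjusted p = 0.0082), a call that held under 17 of 20 alternatives. That call was lost after quantile normalization, without Ancestral replicate 2 and without MDS3e replicate 1. HIS5, histidinol-phosphate aminotransferase, was 0.49 ± 0.09 higher in MDS3e MKT1e than in MKT1e. CPA1, a carbamoyl phosphate synthase subunit gene, fell by 0.35 ± 0.07 in MDS3e MKT1e against Ancestral. Of 5 GATA factor genes and their inhibitor, DAL80 fell by 1.52 ± 0.12 in MKT1e, by 0.93 ± 0.12 in MDS3e MKT1e and by 0.95 ± 0.12 in PMA1e MKT1e. In MDS3e limma called 0 of those 5, with 2 at an unadjusted p under 0.05. The list had 1 rise and 1 fall in MKT1e and in PMA1e MKT1e (40% called), and 1 rise and 2 falls in MDS3e MKT1e (60% called).

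Of 13 other genes of nitrogen use, 38.5%, 69.2%, 61.5% and 46.2% were called in MKT1e, MDS3e, MDS3e MKT1e and PMA1e MKT1e. The shares of all genes were 20.3%, 25.2%, 38.7% and 21.6%. Among the 13, none rose and 5 fell in MKT1e, 2 rose and 7 fell in MDS3e, 1 rose and 7 fell in MDS3e MKT1e, and 2 rose and 4 fell in PMA1e MKT1e. Like ARO9, several of these encode enzymes of amino acid breakdown. BAT2, the cytosolic branched-chain aminotransferase gene, fell by 0.74 ± 0.09 in MKT1e, by 0.66 ± 0.09 in MDS3e MKT1e and by 0.51 ± 0.09 in PMA1e MKT1e. PUT4, the proline permease gene, fell by 0.65 ± 0.11 in MDS3e and by 0.84 ± 0.11 in MDS3e MKT1e, and CAR2, ornithine aminotransferase, fell by 0.66 ± 0.11 in MDS3e and by 0.61 ± 0.11 in MDS3e MKT1e. The genes of that list that rose in a strain with MDS3e, named after their values were seen, were PUT1, proline oxidase, and CAR1, arginase. PUT1 rose by 0.52 ± 0.06 in MDS3e (adjusted p = 0.00045) but was not among the rises in MDS3e MKT1e, where CAR1 was the only 1. Values of the 2 rises in PMA1e MKT1e are not given here. CAR1 rose by 0.49 ± 0.08 in MDS3e MKT1e (adjusted p = 0.0013), and by 0.26 ± 0.08 in MDS3e (adjusted p = 0.044). The CAR1 call in MDS3e held under 5 of 20 alternatives and was lost when any array was left out except Ancestral replicate 2, with 0.14 (adjusted p = 0.22) without Ancestral replicate 1.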

How the data were processed

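The authors normalized the array intensity values with Affymetrix Expression Console, per the submitters' processing notes, and deposited a single table of them. Its algorithm, scaling and version were not given in the sources used here. Array medians ran from 9.45 to 11.0 on a linear scale, and log2 of the value plus 16 was analysed. Of 10928 probe sets, 5498 named 1 S. cerevisiae gene in the platform annotation, matched by gene ID to RefSeq R64 symbols, and the brightest was kept per gene. Background was set at the 95th percentile of 1746 probe sets of another species. All 10 arrays entered a limma fit with genotype means (version 3.58.1, R 4.3.3), tested on simulated data. Tests are two-sided. The members and 9 pathway lists were chosen with earlier results of these data known. Some genes of those lists were not analysed here. List members named in the text were taken by size among those called, up to 3 per list and comparison, and of these mainly those whose call held under every alternative. Equal replicate numbers are not labelled as a shared batch: their deviations correlated between genotypes from -0.20 to 0.39. The number of arrays limits the precision. Alternatives were other offsets, median centring, quantile normalization, no genes below background, the mean of all probe sets, trended variances, array weights, a replicate block, only the compared genotypes and leaving out each array.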

Additional observations from a re-analysis of the deposited data

Results flagged for a closer look

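The effect of MKT1e on TKL2, 1 of the 4 genes of erythrose 4-phosphate supply, differed with the MDS3e allele by the interaction term, at -1.13 ± 0.13 on the log2 scale (limma adjusted p = 0.0033). TKL2 was 1.29 ± 0.09 higher in MKT1e than in Ancestral and 0.16 ± 0.09 higher in MDS3e MKT1e than in MDS3e, the second of which did not pass the test (adjusted p = 0.27).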

How the results depend on the processing

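Of the 81 pairs of ARO gene and comparison, 16 were called, and 9 of these kept their call under every setting that used all arrays or all arrays of the compared genotypes. Only 5 also kept it whichever array was left out: ARO9 in MDS3e, in MDS3e MKT1e and in MDS3e MKT1e against MKT1e, ARO9 in PMA1e MKT1e against MDS3e MKT1e, and ARO3 in MDS3e MKT1e. Of the 65 uncalled pairs, 53 were never called and 12 were called at least once. No called pair of an ARO gene changed sign. The number of ARO genes called was 0 under all alternatives for MKT1e against Ancestral, PMA1e MKT1e against MKT1e and the interaction.

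With arrays left out in turn, the count ran from 2 to 3 for MDS3e against Ancestral, from 3 to 4 for MDS3e MKT1e against Ancestral, from 0 to 2 for PMA1e MKT1e against Ancestral, from 0 to 2 for MDS3e MKT1e against MDS3e, from 1 to 4 for MDS3e MKT1e against MKT1e, from 2 to 3 for PMA1e MKT1e against MDS3e MKT1e, and from 4 to 5 for the F-test over genotypes. Other settings moved it as follows, and the cause was not tested. For PMA1e MKT1e against Ancestral it was 3 after median centring and after quantile normalization, and 2 with trended variance, with the replicate block and with only the compared genotypes, instead of 1. For MDS3e MKT1e against MDS3e it was 3 after quantile normalization, and 2 with pseudocount 64, trended variance, array weights and the replicate block, instead of 1. For MDS3e MKT1e against MKT1e it was 2 after median centring and 1 with only the compared genotypes, instead of 4. For PMA1e MKT1e against MDS3e MKT1e it was 5 with pseudocount 64, trended variance and array weights, instead of 3, and for MDS3e MKT1e against Ancestral it was 2 with only the compared genotypes, instead of 4. Median centring shifted differences by at most 0.08. Of the pathway genes, quantile normalization turned GCN4 in MDS3e MKT1e against Ancestral to 0.033, against -0.25, and PDC1 in MDS3e MKT1e against MKT1e to 0.029, against -0.30. Equal replicate numbers did not deviate together in 7 of 10 pairs of genotypes (correlation at most 0.1).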
